A study of Homo sapiens with 2 samples.

Results

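The cells described here are S-phase cells of the human colon cancer cell line HCT116, selected on their own RNA in a mock-treated and a DAC-treated library. Cells with at least 10000 UMIs (unique molecular identifiers, each standing for a counted RNA molecule) and at most 50% of UMIs from genes named MT- were eligible, which gave 2418 of 3534 cells. S-phase cells were chosen by a high share of UMIs from 11 replication genes (the S sum: *PCNA*, *MCM2* to *MCM7*, *CDC6*, *GINS2*, *UNG* and *SLBP*) together with a share from 9 mitotic genes (the G sum: *TOP2A*, *CDK1*, *CCNB1*, *CCNB2*, *CENPF*, *MKI67*, *UBE2C*, *AURKA* and *TPX2*) that was not high. High meant above the 75th percentile over the eligible cells of both libraries. The choice gave 341 S-phase cells, 112 mock-treated and 229 DAC-treated.

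DAC (5-aza-2'-deoxycytidine, decitabine) was given at 0.5 µM on day 1 and again on day 3. The drug was withdrawn on day 5, and growth went on without it up to collection on day 7. Mock-treated HCT116 cells served as the control, and 1 library was made per condition with the 10x Genomics 3' kit v3. The libraries come from a study that set RNA of single cells beside the DNA methylation of clones grown after DAC. With 1 library per condition no difference could be set against the spread between replicates, so every comparison below is between these 2 libraries.

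In S phase a cell copies its DNA. The ring of MCM proteins is loaded on origins by ORC, CDC6 and CDT1 and becomes an active helicase with CDC45 and the GINS complex, while the clamp PCNA holds the polymerases on DNA. E2F transcription factors switch on most of these genes at the passage from G1 to S. DAC is a cytidine analogue that enters DNA while it is copied and there traps DNMT1, the enzyme that restores methylation on new strands.

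The mock-treated library held 1783 cells with 49911689 UMIs in total, and the DAC-treated library 1751 cells with 59046165 UMIs. S-phase cells made up 8.63% of the 1298 eligible mock-treated cells (exact Clopper-Pearson 95% interval 7.16 to 10.3%) and 20.4% of the 1120 eligible DAC-treated cells (18.1 to 22.9%). All intervals given here cover counting error only. The thresholds were 11.35 UMIs per 10000 for the S sum and 20.2 for the G sum. The last cells outside had S sums of 11.24, 11.28 and 11.31, all 3 DAC-treated, and the first inside had 11.37 (mock-treated), 11.39 (DAC-treated) and 11.39 (mock-treated). Because the thresholds were pooled, these shares describe the choice of cells and are not a separate finding.

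Depth was alike in the S-phase cells of both libraries. The median was 40530 UMIs per mock-treated S-phase cell (14805 to 148446) and 42252 per DAC-treated S-phase cell (11367 to 102625). MT- genes took a median of 15.6% and 16.7% of UMIs. The median S sum was 14.5 and 16.4 UMIs per 10000, and the median G sum was 11.2 and 13.6. Summed over S-phase cells there were 4753205 and 10242304 UMIs. The libraries shared 12 barcodes, none of them eligible in both, and 2 mock-treated and 1 DAC-treated S-phase cells carried a barcode found in the other library.

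The neighbouring cells were not alike in the 2 libraries. Cells above the G threshold numbered 162 of the mock-treated (12.5%) and 443 of the DAC-treated eligible cells (39.6%), and cells low in both sums numbered 1024 (78.9%) and 448 (40%). Of the cells above the S threshold, 20 of 132 mock-treated cells (15.2%, 9.51 to 22.4%) were also above the G threshold and so were left out. In the DAC-treated library this was 244 of 473 (51.6%, 47.0 to 56.2%). Both shares depend on the pooled thresholds that chose the cells and are a description. The other eligible DAC-treated cells thus include 244 above the S threshold. Comparisons with other cells are for this reason also given against the cells low in both sums. The DNA content of the cells in these libraries was not measured, so the sums say nothing of how many cells were dividing, and whether 2 cells in 1 droplet contributed was not tested.

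**Figure D1:**
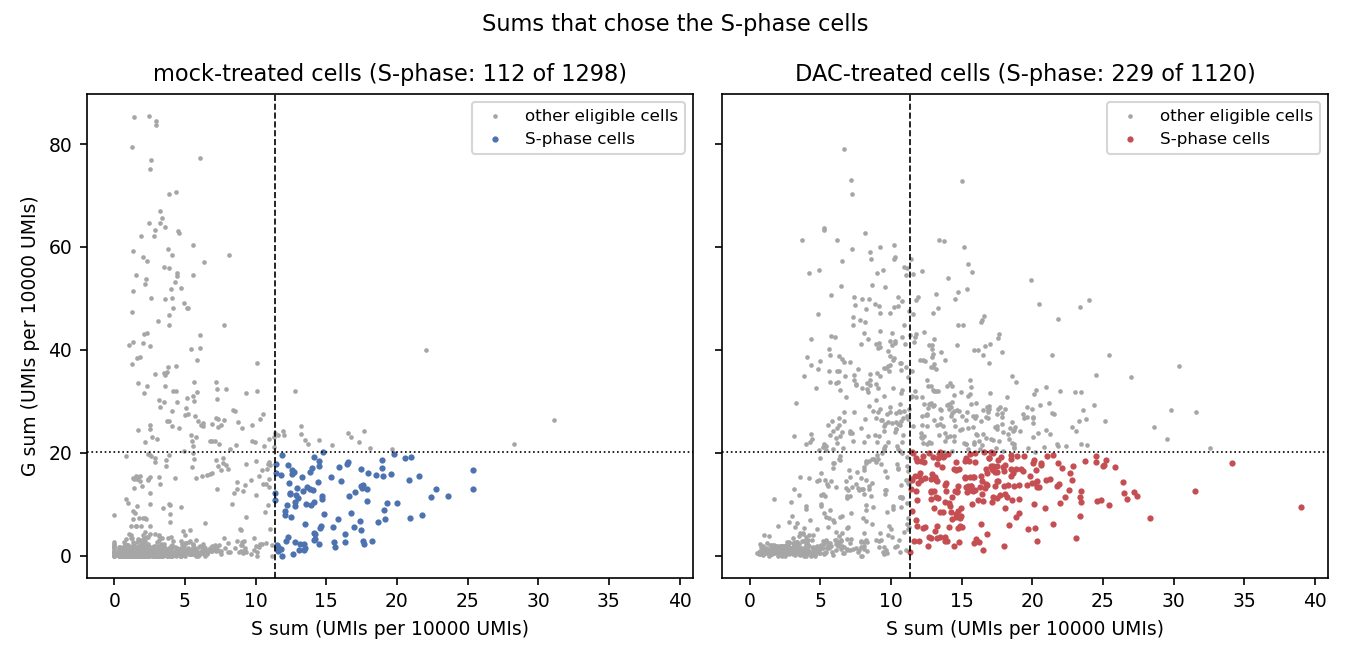
Each point is an eligible cell, with its S sum on the horizontal and its G sum on the vertical axis, both in UMIs per 10000 UMIs, for the mock-treated (left) and DAC-treated library (right). Lines mark the thresholds of 11.35 and 20.2, and coloured points are the 112 and 229 S-phase cells. In the DAC-treated library 244 cells lie above both lines, against 20 in the mock-treated library.

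The genes that chose the cells are given as a description. The S sum genes together reached 1523 CPM (UMIs per 1000000 UMIs, both summed over the cells of a class) in mock-treated and 1676 CPM in DAC-treated S-phase cells. In cells low in both sums they reached 296 and 493 CPM. *PCNA* (GENCODE release 44, chr20:5114953-5126626, minus strand) stood at 210.2 and 300.4 CPM, *MCM5* (chr22:35400134-35425431, plus strand) at 128 and 132 CPM, and *MCM6* at 74.7 and 64.2 CPM. *GINS2* stood at 135 and 196 CPM, and *CDC6* (chr17:40287879-40304657, plus strand), which loads the helicase, at 131 and 111 CPM.

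Replication genes outside the choice were then read in the same cells. They were 57 genes for origins, polymerases, nucleotide supply and replication chromatin. In the mock-treated library 47 of the 50 that reached a mean of 10 CPM were at least 1.5-fold higher in S-phase cells than in all other eligible cells, where 8.77 percent of all 7581 genes at that minimum were that much higher and 2.44 percent that much lower. The median log2 ratio of the 57 was 1.86, against 0.05 over all genes. In the DAC-treated library 30 of 52 were at least 1.5-fold higher, with 1.56 percent of 7966 genes higher and 1.12 percent lower, and the median log2 ratio was 0.63 against 0.00. Against the cells low in both sums, 47 of 49 mock-treated (12.3 percent of all genes) and 49 of 51 DAC-treated (7.59 percent) were at least 1.5-fold higher, with medians of 2.47 and 1.56, and none was that much lower in the DAC-treated library (4.35 percent). Against the cells above the G threshold, a comparison added after seeing the data, 26 of 52 were higher in the mock-treated library (3.12 percent of all genes) and 2 lower (6.3 percent), with a median of 0.58. In the DAC-treated library only 3 of 54 were higher there (0.775 percent) and 1 lower (2.06 percent), with a median of 0.15. Genes that did not choose the cells thus set S-phase cells apart from cells low in both sums in both libraries, and from cells above the G threshold far less, least so in the DAC-treated library.

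Single genes outside the choice show both sides. *DTL*, which marks proteins for destruction at the replication clamp and was picked after its values were seen, had 51.3 CPM in mock-treated S-phase cells and 6.57 CPM in the other mock-treated cells. In the DAC-treated library the values were 44.6 and 17.7 CPM. *RRM2*, a subunit of the enzyme that makes deoxynucleotides, had 187 CPM in S-phase and 35.7 CPM in other mock-treated cells, and 215 against 163 CPM in DAC-treated cells. For both genes the S-phase cells of the 2 libraries lay close together, and the other cells did not, but with percentiles of each library the log2 ratio in S-phase cells was 0.78 for *DTL* and 3.55 for *RRM2*. In DAC-treated cells above the G threshold *RRM2* stood higher than in S-phase cells, at 269 CPM, as did 15 of the 57 genes in all, *TYMS*, *TK1*, *DNMT1* and *DTYMK* among them.

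Markers of an epithelial line were present. All 8 epithelial genes looked at had UMIs in S-phase cells of both libraries, with a median log2 ratio of -0.04. *KRT18*, a keratin of simple epithelia, was higher after DAC, at 2326 and 4961 CPM, and *CLDN7*, *CLDN4* and *EPCAM* were lower, at 429 and 171, 50.1 and 20.1, and 361 and 259 CPM. Of 12 markers of fibroblasts, leukocytes and red cells, 10 had no UMI in mock-treated S-phase cells and 3 (*COL3A1*, *LUM* and *PDGFRA*) had none in DAC-treated S-phase cells. The 12 summed to 7.57 and 20.9 CPM, with the collagen gene *COL1A1* the most abundant at 7.36 and 15.2 CPM and *CD3D* going from 0 to 3.61 CPM.

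Promoters of replication genes are shown because E2F sites are known from this gene class. The 250 bases before the start of each gene were taken from RefSeq (GRCh38.p14) and searched on both strands for the E2F-type letters TTTCCCGC (on the other strand GCGGGAAA) and TTTGGCGC (on the other strand GCGCCAAA). These letters stand in 536 of 27305 promoters of the same length (1.96 percent), in 11 of the 49 promoters found for the 57 replication genes (22.4%), in 3 of 9 found for the S sum genes, and in 4 of 13 found for 17 genes of the G1/S passage. None of 15 repair, 15 histone and 18 ATF4 target promoters held them, while 2 of 29 interferon-stimulated and 3 of 34 cancer-testis promoters did. The zeros allow up to 21.8%, 21.8% and 18.5%, which overlaps the interval of the replication genes (11.8 to 36.6%). All these letters hold CG, and 89.8% of the replication promoters have at least 15 CG against 42.7% of all promoters. The shares were not matched for CG. A match is a description, not a site. Capitals mark the letters in *MCM6* (chr2:135876444-135876693, minus strand), *GINS2* (chr16:85688955-85689204, minus strand), *TYMS* (chr18:657403-657652, plus strand) and *E2F1* (chr20:33686386-33686635, minus strand), each read 5' to 3' on the strand of its gene.
MCM6: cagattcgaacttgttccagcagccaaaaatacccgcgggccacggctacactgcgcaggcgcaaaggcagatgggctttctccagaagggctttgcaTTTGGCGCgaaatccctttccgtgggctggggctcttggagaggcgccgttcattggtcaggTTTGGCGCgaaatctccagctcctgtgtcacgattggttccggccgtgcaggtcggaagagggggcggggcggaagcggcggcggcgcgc
GINS2: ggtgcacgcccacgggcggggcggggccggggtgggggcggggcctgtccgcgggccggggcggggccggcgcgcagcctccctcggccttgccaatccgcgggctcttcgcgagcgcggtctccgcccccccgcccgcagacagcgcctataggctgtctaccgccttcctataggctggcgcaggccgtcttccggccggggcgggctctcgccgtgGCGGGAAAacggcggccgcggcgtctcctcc
TYMS: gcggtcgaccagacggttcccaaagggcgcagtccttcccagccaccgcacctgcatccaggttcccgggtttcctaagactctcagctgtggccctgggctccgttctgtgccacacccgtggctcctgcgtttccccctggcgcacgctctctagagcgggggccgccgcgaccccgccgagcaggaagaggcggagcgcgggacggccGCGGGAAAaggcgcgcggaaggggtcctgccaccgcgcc
E2F1: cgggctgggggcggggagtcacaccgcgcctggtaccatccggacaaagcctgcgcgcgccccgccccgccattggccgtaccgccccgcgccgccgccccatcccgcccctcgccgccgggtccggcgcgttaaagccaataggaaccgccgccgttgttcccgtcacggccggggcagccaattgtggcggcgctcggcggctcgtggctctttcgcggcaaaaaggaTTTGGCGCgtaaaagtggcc

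The main question was what DAC changed within S-phase cells. Genes silent in mock-treated cells, interferon-stimulated genes, *CCND1* and *CDK6* were higher in DAC-treated S-phase cells, ATF4 targets and the histone gene *HIST1H4C* were lower, and most replication genes differed little. For *HIST1H4C* and the replication genes this holds for the pooled thresholds only, since with percentiles of each library *HIST1H4C* turned to 1.25 on the log2 scale and the replication genes were higher, with a median of 1.10. Among 7832 genes with a mean of at least 10 CPM, 628 were at least 2-fold higher (8.02 percent) and 428 at least 2-fold lower (5.46 percent). The median log2 ratio of all these genes was 0.13, with 4566 above 0 and 3266 below. With median-of-ratios scaling, which lowers every log2 ratio by 0.12, there were 467 higher and 552 lower, so that 45.8% of the calls were higher instead of 59.5%. List medians near 0 are to be read against that shift. In the other eligible cells, 907 of 7889 genes were at least 2-fold higher (11.5 percent) and 387 at least 2-fold lower (4.91 percent).

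Replication genes outside the choice stood at nearly the same level in S-phase cells of both libraries. Their median log2 ratio was -0.11, with 26 of 57 above 0 and 31 below, 54 of the 57 reached the minimum of 10 CPM, and of these none was 2-fold apart in either direction (*RFC4* was 2-fold lower when scaled by median of ratios). Summed, they took 5368 CPM in mock-treated and 4995 CPM in DAC-treated S-phase cells. The same genes had a median of 0.99 in the other eligible cells, which pool cells above the G threshold, with a median of 0.35, and cells low in both sums, with 0.64. The pooled value exceeds both, and the shares of the 2 classes differ between the libraries. The median difference between S-phase and other eligible cells was -1.25 on the log2 scale, and -0.82 against the cells low in both sums, an alternative chosen after seeing the data. These values rest on the pooled thresholds, which chose cells above the same S sum in both libraries. Genes that go with the S sum can come out near level by that choice, so their level is a description. When each library was given its own percentiles, which put the S threshold at 5.26 for mock-treated and 14.97 for DAC-treated cells and the G threshold at 6.101 and 27.2, the median in S-phase cells was 1.10 with all 57 genes above 0, and the difference was 0.34.

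Among genes that license and fire origins, the median log2 ratio was 0.10, and -0.02 with median-of-ratios scaling. *CDT1*, which helps CDC6 to load the helicase, had 193 CPM in mock-treated and 122 CPM in DAC-treated S-phase cells, a ratio of 0.633 (0.581 to 0.6902). *CLSPN*, which carries the checkpoint signal at stalled forks, had 151 CPM in mock-treated and 209 CPM in DAC-treated S-phase cells, a ratio of 1.39 (1.27 to 1.51). *CDT1* was thus lower in DAC-treated S-phase cells, turning to 0.39 on the log2 scale with percentiles of each library, and *CLSPN* was higher, while *ORC6*, a subunit of the origin recognition complex, differed little at 103 and 99.98 CPM. *TIMELESS*, of the fork protection complex, had 41.02 and 25.1 CPM, and its partner *TIPIN* had 46.3 and 60.4 CPM. With percentiles of each library *TIMELESS* turned from -0.71 to 0.24 on the log2 scale. *MCM10* stood at 71.1 and 83.7 CPM, *CDC45* at 45.9 and 36.8 CPM, and *GMNN*, the inhibitor of CDT1, at 98.9 and 117 CPM. Of the 18 genes 17 reached the minimum, and none was 2-fold higher or lower, where 8.02 and 5.46 percent of all genes were.

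Genes for polymerases, clamp loading and single strands had a median of -0.26, with 15 of 21 below 0. *RFC4*, a subunit of the clamp loader, had 133 CPM in mock-treated and 70.7 CPM in DAC-treated S-phase cells, a ratio of 0.5300 (0.476 to 0.591). *DNA2*, a nuclease that trims Okazaki fragments and is under the minimum, had 10.5 CPM in mock-treated and 5.17 CPM in DAC-treated S-phase cells, a ratio of 0.492 (0.328 to 0.739). Both were lower in DAC-treated S-phase cells and both turned with percentiles of each library, to 0.58 and 0.96 on the log2 scale. *POLD3* stood at 43.3 and 26.8 CPM, *RPA1*, which coats single-stranded DNA, at 61.01 and 76.5 CPM, and *FEN1*, the flap nuclease, at 109 and 125 CPM. *POLD3* turned as well, from -0.69 to 0.90 on the log2 scale with percentiles of each library.

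Genes of nucleotide supply had a median of 0.03, and -0.10 with median-of-ratios scaling. *TYMS*, which makes thymidylate, had 287 and 292 CPM, and *RRM1* had 84.6 and 67.1 CPM. With percentiles of each library *TYMS* was at 1.57 on the log2 scale, and *RRM1* turned from -0.33 to 1.16. *DUT*, which removes dUTP, had 268 CPM in mock-treated and 161 CPM in DAC-treated S-phase cells, a ratio of 0.601 (0.559 to 0.647). *TK1*, thymidine kinase, had 300.2 CPM in mock-treated and 215 CPM in DAC-treated S-phase cells, a ratio of 0.716 (0.6697 to 0.766), and *DCTPP1*, which breaks down dCTP and its analogues, had 152 and 217 CPM. *DUT* and *TK1* were lower and *DCTPP1* higher in DAC-treated S-phase cells, and *DUT* and *TK1* turned to 0.60 and 1.33 on the log2 scale with percentiles of each library.

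The median over 9 genes of replication chromatin was 0.01, and -0.12 with median-of-ratios scaling. *DNMT1* (chr19:10133342-10231286, minus strand), the enzyme that DAC traps, had 275 CPM in mock-treated and 276 CPM in DAC-treated S-phase cells, a ratio of 1.005 (0.941 to 1.07). Its RNA thus stood at the same level in S-phase cells of both libraries, while in the other eligible cells it was at 100.1 CPM in mock-treated and 213 CPM in DAC-treated cells. With percentiles of each library its log2 ratio in S-phase cells was 1.29. *UHRF1*, which brings DNMT1 to newly copied DNA, had 54.5 CPM in mock-treated and 76.3 CPM in DAC-treated S-phase cells, a ratio of 1.401 (1.22 to 1.62). *NASP*, a histone chaperone, stood at 295 and 376 CPM, *CHAF1A* of the assembly factor CAF-1 at 116 and 134 CPM, and *ATAD2* at 342 and 261 CPM.

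**Figure D2:**
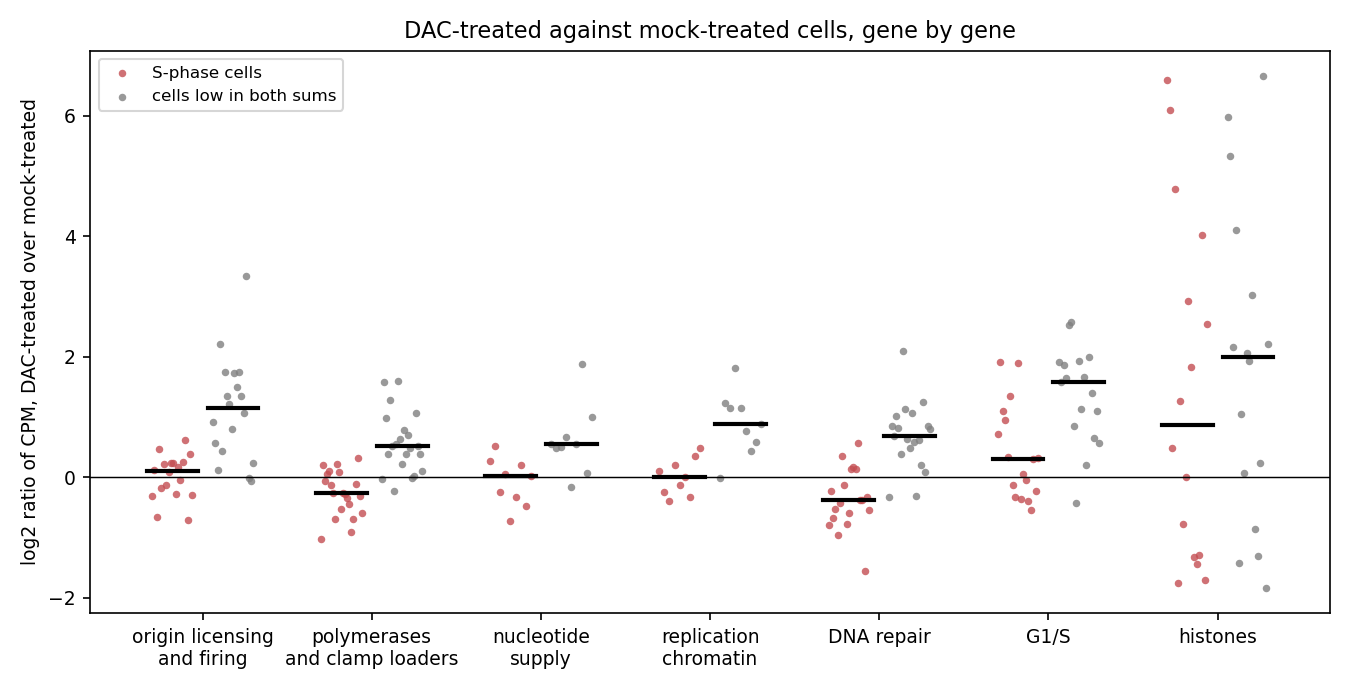
Each point is a gene, placed by its log2 ratio of CPM, DAC-treated over mock-treated, within S-phase cells (red) and within cells low in both sums (grey), for 7 gene lists. Black bars are medians, and genes without a UMI in mock-treated cells are drawn at their lower bound. For the replication lists the S-phase medians lie between -0.26 and 0.10, below those of the cells low in both sums, and they lie higher when each library has its own percentiles.

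Histone genes moved in both directions. Of 17 genes, 9 reached the minimum of 10 CPM, and 3 of these were at least 2-fold higher (8.02 percent over all genes) and 3 at least 2-fold lower (5.46 percent). Among the higher ones *HIST1H1A* and *HIST1H1B*, without a UMI in mock-treated cells, reached the minimum through the DAC-treated cells alone. Their calls follow from that filter, so the count is a description. The median over the 16 genes with a ratio was 0.87. Without *HIST1H1A*, *HIST1H1B* and *HIST1H1D*, which were set to the floor in mock-treated cells, it was 0.01 over 13 genes, -0.12 with median-of-ratios scaling and 2.29 with percentiles of each library, a choice made after seeing the data. Summed, the list took 3137 CPM in mock-treated and 1524 CPM in DAC-treated S-phase cells. *HIST1H4C* (ENSG00000197061, chr6:26103933-26104337, plus strand), a gene for histone H4, made most of that sum, with 2627 CPM in mock-treated and 967 CPM in DAC-treated S-phase cells, a ratio of 0.368 (0.359 to 0.378). It was the lower in DAC-treated cells also above the G threshold, at 2064 and 696 CPM, and in cells low in both sums, at 443 and 179 CPM. At an equal depth of 10000 UMIs a median of 25 *HIST1H4C* UMIs was found per mock-treated and 8 per DAC-treated S-phase cell. With percentiles of each library its log2 ratio turned from -1.44 to 1.25, where both the S and the G threshold differ between the libraries, and the parts of the 2 were not told apart.

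The linker histone genes showed the widest contrast. *HIST1H1E* had 109 CPM in mock-treated and 32.2 CPM in DAC-treated S-phase cells, a ratio of 0.296 (0.257 to 0.341), and *HIST2H2AC*, for histone H2A, had 144 CPM in mock-treated and 44.1 CPM in DAC-treated S-phase cells, a ratio of 0.306 (0.271 to 0.345). Both were lower after DAC, and with percentiles of each library both turned, to 1.66 and 1.21. *HIST1H1C*, the linker histone gene with the most UMIs here, had 195 CPM in mock-treated and 274 CPM in DAC-treated S-phase cells, a ratio of 1.403 (1.302 to 1.51). *HIST1H1A*, *HIST1H1B* and *HIST1H1D* had no UMI in any of the 1783 mock-treated cells. In DAC-treated S-phase cells they had 624, 442 and 179 UMIs, or 60.9, 43.2 and 17.5 CPM. That made them 96.5-fold, 68.4-fold and 27.7-fold higher with the 0 set to a floor of 3 UMIs. Of the 3, *HIST1H1D* is under the minimum of 10 CPM.

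These 3 genes were also unevenly spread among DAC-treated cells. *HIST1H1A* stood at 60.9 CPM in S-phase cells, 42.5 CPM in cells above the G threshold and 5.46 CPM in cells low in both sums. *HIST1H1B* stood at 43.2, 29.4 and 3.47 CPM, and *HIST1H1D* at 17.5, 10.9 and 1.48 CPM. All 3 were highest in S-phase cells. At equal depth a *HIST1H1A* UMI was found in 29.7% of DAC-treated S-phase cells (23.9 to 36.1%), in 3.12% of DAC-treated cells low in both sums (1.72 to 5.19%) and in none of the 112 mock-treated S-phase cells, which allows up to 3.24% of cells with a UMI. For *HIST1H1B* the shares were 21.8%, 2.46% and 0, with the same limit.

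Smaller histone genes also differed. *HIST1H2BD* had 1.26 and 9.57 CPM, *HIST1H2BK* had 2.73 and 9.76 CPM, and *HIST1H2AC* had 11.8 and 28.2 CPM, all higher after DAC. *HIST1H3B* had 9.05 and 3.61 CPM and *HIST1H2AG* 19.1 and 11.2 CPM, both lower, and both turned with percentiles of each library, to 1.497 and 2.30. Of these only *HIST1H2AC* was called, since *HIST1H2BD*, *HIST1H2BK* and *HIST1H3B* are under the minimum of 10 CPM and *HIST1H2AG* was less than 2-fold apart. *HIST1H3D* had no UMI in S-phase cells of either library. Histone genes of a class are near-identical, so UMIs may be placed on the wrong copy. Most histone RNAs made in S phase end without a poly(A) tail, which the 3' kit primes on, so the levels are of the molecules the kit could prime, and the part of tail use in the differences was not tested.

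Promoters of 3 of the 5 linker histone genes are shown because 2 of them had no RNA in mock-treated cells and the third did. Capitals mark each CG, the letters that can be methylated, in the 250 bases before the start: 15 for *HIST1H1A* (chr6:26017788-26018037, minus strand), 11 for *HIST1H1B* (chr6:27867589-27867838, minus strand) and 19 for *HIST1H1E* (chr6:26156079-26156328, plus strand). *HIST1H1D*, without RNA in mock-treated cells, and *HIST1H1C*, with it, both have 11, so the count of CG does not divide the genes. The median over all 27305 promoters was 11, over 15 histone promoters 11 and over 49 replication promoters 24. Methylation of these promoters was not measured in these files.
HIST1H1A: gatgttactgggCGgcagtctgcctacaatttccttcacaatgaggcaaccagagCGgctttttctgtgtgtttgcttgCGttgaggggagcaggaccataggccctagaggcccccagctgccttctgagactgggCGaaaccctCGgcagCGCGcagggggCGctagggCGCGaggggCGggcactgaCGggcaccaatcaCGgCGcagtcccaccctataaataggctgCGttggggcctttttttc
HIST1H1B: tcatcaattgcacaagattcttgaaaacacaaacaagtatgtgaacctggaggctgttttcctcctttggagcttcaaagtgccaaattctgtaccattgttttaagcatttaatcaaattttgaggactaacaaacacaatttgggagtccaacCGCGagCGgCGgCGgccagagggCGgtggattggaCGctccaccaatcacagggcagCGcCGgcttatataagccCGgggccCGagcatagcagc
HIST1H1E: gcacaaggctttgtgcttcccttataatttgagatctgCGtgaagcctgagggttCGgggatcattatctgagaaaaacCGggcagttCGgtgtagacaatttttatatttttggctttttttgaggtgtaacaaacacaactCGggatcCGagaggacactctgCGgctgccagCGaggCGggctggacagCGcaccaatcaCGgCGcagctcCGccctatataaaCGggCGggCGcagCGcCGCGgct

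**Figure D3:**
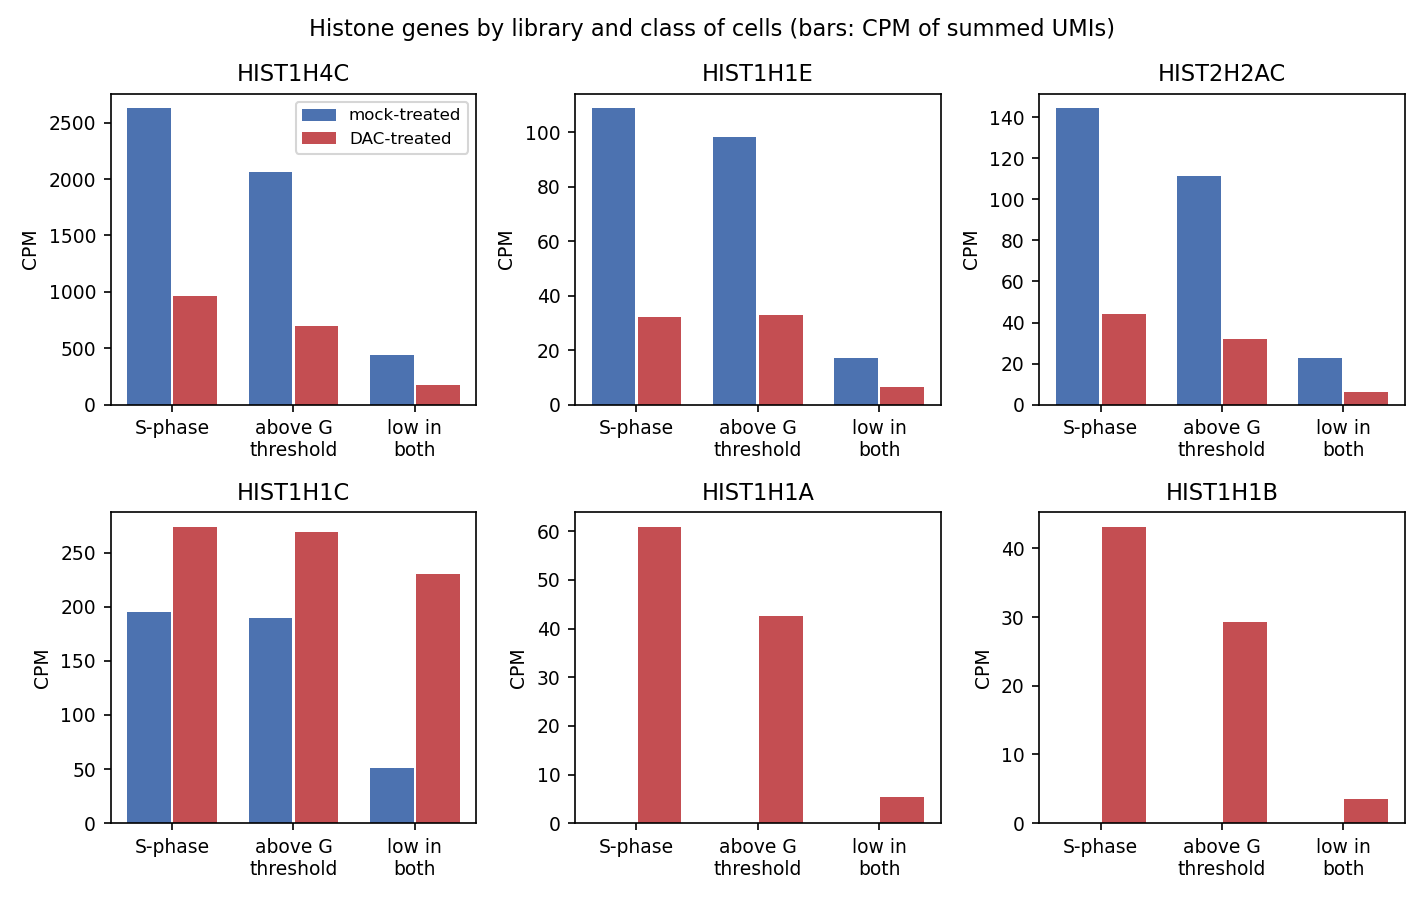
Bars give CPM from summed UMIs for 6 histone genes in S-phase cells, cells above the G threshold and cells low in both sums of the mock-treated (blue) and DAC-treated library (red). *HIST1H4C*, *HIST1H1E* and *HIST2H2AC* are lower after DAC in all 3 classes, which turns in S-phase cells with percentiles of each library, and *HIST1H1A* and *HIST1H1B* appear after DAC only, at 60.9 and 43.2 CPM in S-phase cells.

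Genes of the G1/S passage were higher in part. Of 17 genes, all at the minimum, 4 were at least 2-fold higher (3 with median-of-ratios scaling, 8.02 percent over all genes) and none 2-fold lower, and the median was 0.31, or 1.29 with percentiles of each library. *CCND1* (chr11:69641156-69654474, plus strand), for cyclin D1, which starts the passage with CDK4 and CDK6, had 332 CPM in mock-treated and 1246 CPM in DAC-treated S-phase cells, a ratio of 3.75 (3.56 to 3.96). *CDK6* had 33.2 CPM in mock-treated and 123 CPM in DAC-treated S-phase cells, a ratio of 3.704 (3.14 to 4.398), while *CDK4* had 175 and 139.7 CPM. *CDC25A*, the phosphatase that frees CDK2, had 14.3 CPM in mock-treated and 36.6 CPM in DAC-treated S-phase cells, a ratio of 2.56 (1.97 to 3.36), and *CCND3* had 18.7 CPM in mock-treated and 40.2 CPM in DAC-treated S-phase cells, a ratio of 2.15 (1.705 to 2.73). *CCNE1*, for cyclin E, which acts with CDK2 at the start of S phase, stood at 39.1 and 75.3 CPM, and *CCNA2*, for the cyclin that follows it, at 36.2 and 59.7 CPM. *E2F1* had 46.3 and 35.9 CPM, a log2 ratio of -0.37 that turned to 0.73 with percentiles of each library. *CCND1* was high in every class of DAC-treated cells, with 1457 CPM in cells low in both sums against 489 CPM in mock-treated ones.

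Among 8 inhibitors of cyclin-dependent kinases 6 reached the minimum, and 2 of these were at least 2-fold higher, or 1 with median-of-ratios scaling (8.02 percent over all genes), and none 2-fold lower (5.46 percent). *CDKN2D* had 21.7 CPM in mock-treated and 53.99 CPM in DAC-treated S-phase cells, a ratio of 2.49 (2.02 to 3.11), *CDKN3* had 57.6 CPM in mock-treated and 123 CPM in DAC-treated S-phase cells, a ratio of 2.14 (1.87 to 2.44), and *CDKN2C* had 3.79 and 8.01 CPM. *CDKN1A*, for the inhibitor p21, stood apart from them, with 143 CPM in mock-treated and 159.9 CPM in DAC-treated S-phase cells, a ratio of 1.12 (1.02 to 1.22). Its log2 ratio of 0.16 turned to -0.18 at 20% MT- UMIs or less, and was 0.86 with percentiles of each library. In cells low in both sums *CDKN1A* had 113 CPM in mock-treated and 289 CPM in DAC-treated cells. Its DAC-treated level was thus lower in S-phase cells than in cells low in both sums. *CDKN2A*, for p16, had 131 and 96.1 CPM.

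Targets of p53 did not move together. Of 23 genes 20 reached the minimum, and 2 of these were at least 2-fold higher (1 with median-of-ratios scaling), near the 8.02 percent over all genes, and 4 at least 2-fold lower, where 5.46 percent of all genes were. The median was 0.24. *GDF15*, a secreted stress factor, had 1059 CPM in mock-treated and 226 CPM in DAC-treated S-phase cells, a ratio of 0.214 (0.203 to 0.224), and *GADD45A* had 299 CPM in mock-treated and 62.9 CPM in DAC-treated S-phase cells, a ratio of 0.211 (0.192 to 0.231). *SESN2* had 73.00 and 17.6 CPM and *BBC3*, for the death protein PUMA, 49.7 and 18.6 CPM. These 4 were lower after DAC, and *GDF15*, *GADD45A* and *SESN2* are also known to respond to other stress. *PHLDA3* had 18.7 CPM in mock-treated and 60.05 CPM in DAC-treated S-phase cells, a ratio of 3.21 (2.56 to 4.05), *AEN* had 15.99 and 34.3 CPM, and *MDM2*, which removes p53, had 36.2 and 62.7 CPM, all higher after DAC.

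Repair genes had a median of -0.39, with 5 of 19 above 0 and 14 below, and 0.91 with percentiles of each library. *BRCA1*, which acts in repair of double-strand breaks, had 130.02 CPM in mock-treated and 80.9 CPM in DAC-treated S-phase cells, a ratio of 0.623 (0.5603 to 0.692), and turned to 1.07 on the log2 scale with percentiles of each library. *RMI2*, which helps to untangle DNA after recombination, had 24.8 CPM in mock-treated and 8.397 CPM in DAC-treated S-phase cells, a ratio of 0.338 (0.253 to 0.4504), and was the only gene of the list 2-fold lower, 1 of 18 at the minimum against 5.46 percent over all genes, joined by *BRIP1* with median-of-ratios scaling. *PARP1*, which senses breaks, had 202 CPM in mock-treated and 299 CPM in DAC-treated S-phase cells, a ratio of 1.48 (1.38 to 1.596). *H2AFX* stood at 139.7 and 154 CPM and the kinase gene *CHEK1* at 70.9 and 52.6 CPM. *PARP1* was thus the higher and *BRCA1* and *RMI2* the lower after DAC.

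S-phase cells also differed among themselves. They were divided by the G sum into 3 tiers at 10.4 and 15.3 UMIs per 10000, pooled over libraries. The lowest tier held 52 of the mock-treated cells (46.4%) and 62 of the DAC-treated cells (27.1%), the middle tier 29 (25.9%) and 84 (36.7%), and the highest tier 31 (27.7%) and 83 (36.2%). These shares follow from a sum that also chose the cells and are a description. From the lowest to the highest tier *RRM2* went from 108 to 259.8 CPM in mock-treated and from 123 to 269 CPM in DAC-treated cells. *CCNE1* went from 53.4 over 23.2 to 32.3 CPM and from 85.1 over 73.8 to 70.1 CPM. *CCNA2* went from 22.1 to 48.4 CPM and from 33.6 to 67.2 CPM. The cyclin E gene was highest and *RRM2* and the cyclin A gene were lowest where the G sum was lowest, in both libraries.

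Most histone genes read by tier were also lowest where the G sum was lowest. *HIST1H4C* went from 1566 over 3368 to 3526 CPM in mock-treated and from 529 over 1056 to 1179 CPM in DAC-treated cells, lower after DAC in each tier. In DAC-treated cells *HIST1H1A* went from 26.7 over 62.7 to 82.6 CPM and *HIST1H1B* from 7.25 over 40.3 to 70.6 CPM. *HIST1H1C* did not follow in DAC-treated cells, at 277 over 219.96 to 326 CPM. In mock-treated cells *HIST1H1C* went from 92.8 over 288 to 263 CPM and *HIST1H1E* from 50.5 over 168 to 142 CPM, both highest in the middle tier. *CCND1* went the other way, from 452 to 228 CPM and from 1397 to 1171 CPM. *CCND1* was higher after DAC in all 3 tiers. When the cells were divided by total UMIs instead, *RRM2*, *CCNE1* and *CCND1* turned in DAC-treated cells, with log2 ratios of the highest to the lowest tier of -0.21, 0.31 and 0.18, where the G sum gave 1.13, -0.28 and -0.26. *HIST2H2AC* and *HIST1H1C* turned as well, from 2.36 to -0.49 and from 0.24 to -0.14, and *HIST1H4C*, *HIST1H1A*, *HIST1H1B* and *HIST1H1E* went from 1.16, 1.63, 3.28 and 1.02 to 0.07, 0.09, 0.17 and 0.01.

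**Figure D4:**
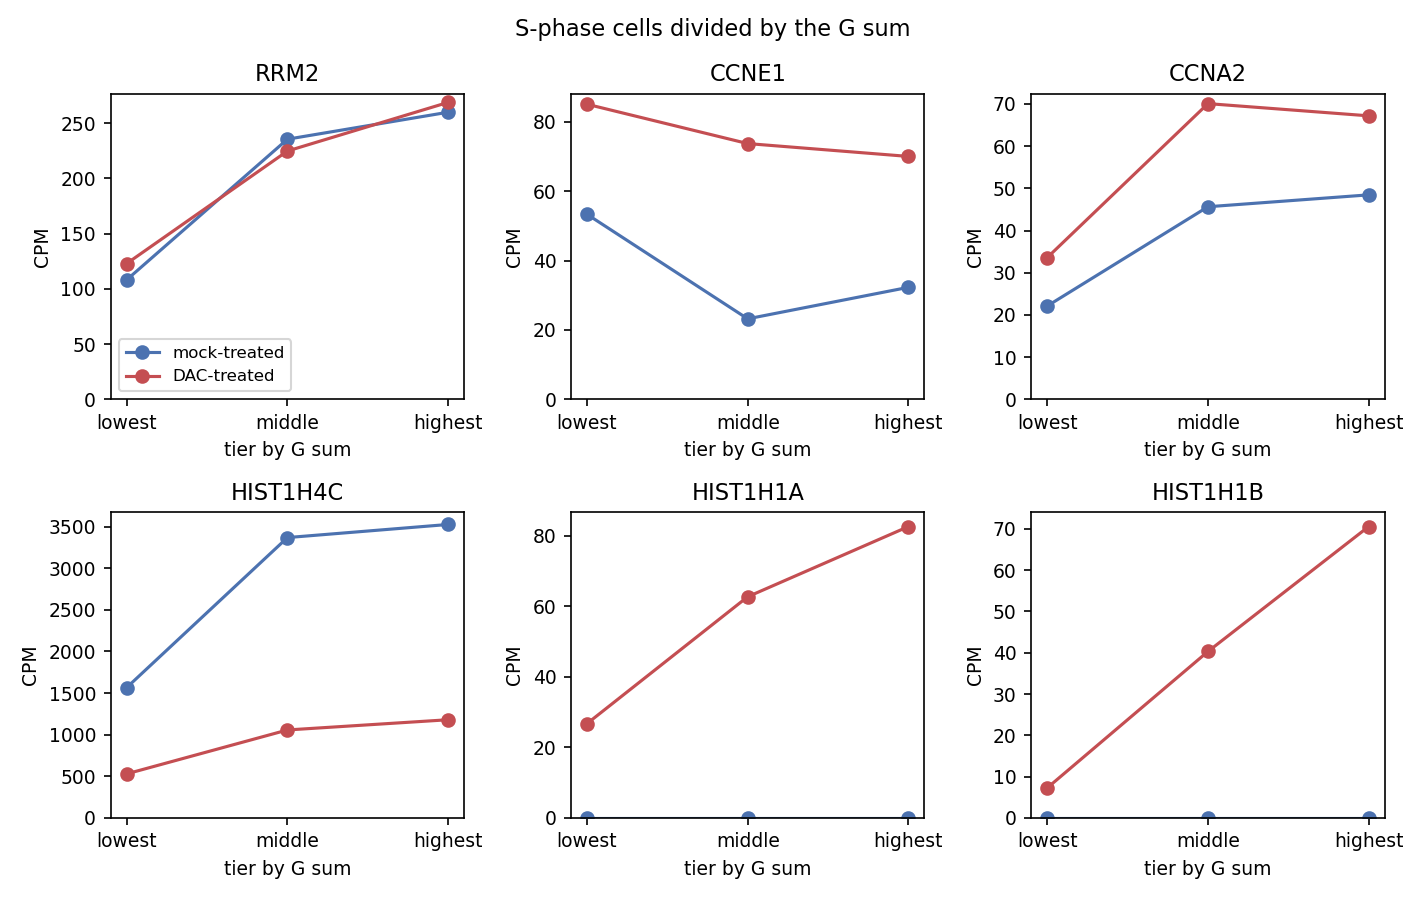
Points give CPM from summed UMIs for 6 genes in the lowest, middle and highest tier of S-phase cells by the G sum, for the mock-treated (blue) and DAC-treated library (red). *RRM2* runs nearly alike in both, *HIST1H4C* is lower and *CCNE1* higher after DAC in each tier, and *HIST1H1A* and *HIST1H1B* increase with the G sum in DAC-treated cells and stay at 0 in mock-treated cells.

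Genes silent in mock-treated cells were on in S-phase cells after DAC. Of 39 cancer-testis genes, which are normally on in germ cells and silenced by methylation elsewhere, 32 had no UMI in mock-treated S-phase cells. The 39 summed to 143 CPM in mock-treated and 1207 CPM in DAC-treated S-phase cells, 16 reached the minimum of 10 CPM, and 14 of these were at least 2-fold higher (8.02 percent over all genes) and none 2-fold lower. Genes without a UMI in mock-treated S-phase cells reach that minimum through the DAC-treated cells alone. They are higher by that filter, so the count is a description. The median over 34 genes with a ratio was 4.39, with genes at 0 taken at the floor. *MAGEA4* (chrX:151912495-151925171 on the X chromosome, plus strand) had 0 and 1364 UMIs, the latter 133 CPM, at least 211-fold higher. *TKTL1* had 0 and 86.7 CPM, 137-fold higher against that floor (lower limit 111), and *VCX3B* had 0 and 121 CPM, 192-fold higher (lower limit 156). *MAGEA3* and *MAGEB2* were on already, with 63.7 and 112 CPM and 63.1 and 118 CPM. UMIs of near-identical copies (*VCX3A* and *VCX3B*, *MAGEA3* and *MAGEA6*, the GAGE and PAGE genes) may be placed on the wrong copy.

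Genes outside that list were induced as far. The imprinted gene *MEG3* (chr14:100779410-100861031, plus strand) had 0 and 129 CPM, at least 204-fold higher. *KRTAP3-1*, for a hair keratin-associated protein, had 0 and 112 CPM, 178-fold higher against that floor (lower limit 145), and *GAGE2A* had 0 and 119 CPM. *LY6K* had 1 UMI in mock-treated S-phase cells and 124 CPM in DAC-treated ones, a ratio of 590.3 (106 to 23334), and *UCHL1*, a deubiquitinase gene of neurons, had 1 UMI and 109 CPM. *SAP25* had 1.05 CPM in mock-treated and 158 CPM in DAC-treated S-phase cells, a ratio of 150.4 (64.3 to 464). With *MAGEA4*, *VCX3B*, *TKTL1* and *IFI27* these are the 10 genes with the highest ratio among genes with at least 200 UMIs in the higher library. Each was at or below 5.47 CPM in mock-treated S-phase cells. The 8 genes the study itself named as re-expressed, which were chosen on these libraries and are no independent evidence, had 0 UMIs in mock-treated and 319 in DAC-treated S-phase cells, with *SFRP1* the highest at 9.57 CPM. A list of 6 induced genes, *MEG3*, *LY6K*, *SAP25*, *KRTAP3-1*, *UCHL1* and *LINC00958*, had a median log2 ratio of 7.57, with 3 of them taken at the floor. They were listed with earlier results of these data known, so this median restates the choice and is a description.

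Against DAC-treated cells low in both sums these genes stood lower in S-phase cells in part. Cancer-testis genes summed to 1207 CPM in S-phase cells, 966 CPM in cells above the G threshold and 1634 CPM in cells low in both sums. *MEG3* had 129 CPM in S-phase cells and 237 CPM in cells low in both sums, *KRTAP3-1* had 112 and 209 CPM, and *LINC00958* had 68.9 and 106 CPM. Of the other 3 genes of that list, *SAP25* stood at least 1.5-fold higher in S-phase cells, at 158 and 102 CPM. *UCHL1*, at 109 and 87.5 CPM, and *LY6K*, at 124 and 121 CPM, were less than 1.5-fold apart. Whether these differences go with the phase or with other properties of the cells was not tested.

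Single S-phase cells varied widely in these genes. All were compared at an equal depth of 10000 UMIs drawn from each cell. A median of 2957 genes was detected per mock-treated and 3045 per DAC-treated S-phase cell. The 22208 genes with at most 2 UMIs in every mock-treated cell gave a median of 40.5 UMIs (22 to 74) per mock-treated and 105 UMIs (46 to 302) per DAC-treated S-phase cell. They include 12414 genes without a UMI in any mock-treated cell. The study reports fewer genes at the same limit, and why was not examined. Of the 229 DAC-treated S-phase cells 209 (91.3%, 86.8 to 94.6%) exceeded the 99th percentile of these UMIs in mock-treated S-phase cells. That percentile, 73.56 UMIs, lay next to the mock-treated maximum of 74 and so rests on the highest cells of a single thinning. The interval leaves out the error of the percentile, and a second thinning gave a share outside it. Genes with no UMI in any mock-treated cell gave 1 to 128 UMIs, with a median of 17 per DAC-treated S-phase cell, and what part came from RNA outside the cell was not tested. Mock-treated cells are low in these gene sets by the way the sets were made.

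The genes with a UMI differed from cell to cell, and how far sampling at this depth or RNA from other cells adds to that was not tested. At equal depth *MEG3* was found in 41.0% of DAC-treated S-phase cells (34.6 to 47.7%) with up to 14 UMIs, *MAGEA4* in 35.4% with up to 12, *KRTAP3-1* in 26.2% with up to 65, and *VCX3B* in 13.5% with up to 41. At full depth the shares were 64.2%, 50.2%, 51.1% and 20.5%. None had a UMI in the 112 mock-treated S-phase cells at either depth, which allows up to 3.24% of cells with a UMI. Of the cancer-testis genes a DAC-treated S-phase cell showed from 1 to 20, with a median of 4, and a mock-treated one had a median of 1.

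**Figure D5:**
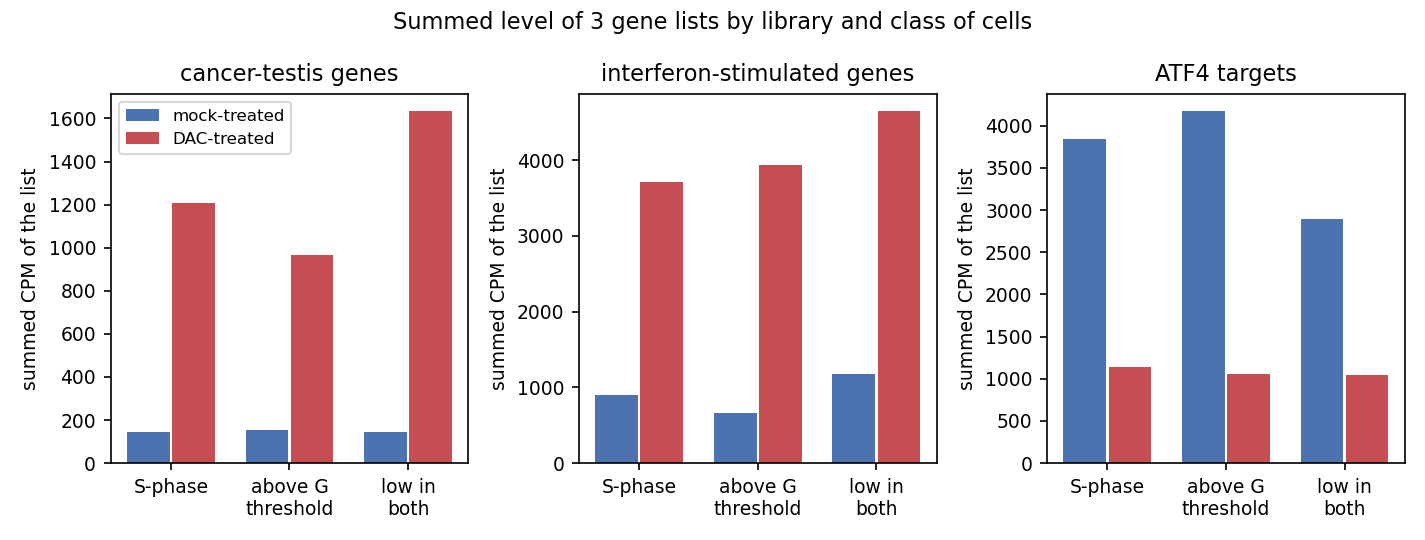
Bars give the summed CPM of cancer-testis genes, interferon-stimulated genes and ATF4 targets in S-phase cells, cells above the G threshold and cells low in both sums of the mock-treated (blue) and DAC-treated library (red). In S-phase cells the sums go from 143 to 1207, from 903 to 3713 and from 3848 to 1136 CPM, and the other classes show the same directions.

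Interferon-stimulated genes, which defend against viruses, were higher in S-phase cells after DAC. Of 35 genes 20 reached the minimum of 10 CPM, and 14 of these were at least 2-fold higher (8.02 percent over all genes; 12 with median-of-ratios scaling) and none 2-fold lower. Members such as *IFI27*, *BST2* and *IRF7*, under 10 CPM in mock-treated S-phase cells, reached the minimum through the DAC-treated cells. The count is thus partly set by that filter and is a description. The median over 33 genes with a ratio was 2.03. *IFI27*, a mitochondrial interferon-response gene, had 5.47 CPM in mock-treated and 796 CPM in DAC-treated S-phase cells, a ratio of 146 (99.3 to 223). *ISG15*, a ubiquitin-like modifier, had 185 CPM in mock-treated and 1196 CPM in DAC-treated S-phase cells, a ratio of 6.48 (6.05 to 6.95), and *IFI6* had 20.8 CPM in mock-treated and 404 CPM in DAC-treated S-phase cells, a ratio of 19.4 (15.9 to 23.9). *BST2*, which tethers viruses to the cell, had 9.05 and 113 CPM, and *IRF7*, a transcription factor of the response, 6.52 and 52.4 CPM. *IFITM2* stood at 98.7 and 96.3 CPM, less than 2-fold apart. At equal depth the list gave 1 to 29 UMIs per mock-treated S-phase cell (median 9) and 3 to 161 per DAC-treated one (median 26), so the ranges overlapped. The sum was 3713 CPM in DAC-treated S-phase cells, 3934 CPM above the G threshold and 4646 CPM in cells low in both sums.

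Targets of ATF4, the factor of the amino acid and stress response, were lower in S-phase cells after DAC. Of 21 genes 18 reached the minimum, and 15 of these were at least 2-fold lower (5.46 percent over all genes) and none 2-fold higher. The median over 20 genes with a ratio was -1.89. *ASNS* (chr7:97851677-97872542, minus strand), asparagine synthetase, had 351 CPM in mock-treated and 35.9 CPM in DAC-treated S-phase cells, a ratio of 0.102 (0.0912 to 0.115). *DDIT4*, an inhibitor of growth signalling (chr10:72273919-72276036, plus strand), had 291 CPM in mock-treated and 12.1 CPM in DAC-treated S-phase cells, a ratio of 0.0417 (0.0344 to 0.0501), and *TRIB3* had 197 CPM in mock-treated and 17.9 CPM in DAC-treated S-phase cells, a ratio of 0.0908 (0.0771 to 0.107). *PHGDH* and *PSAT1*, of serine synthesis, went from 269 to 44.5 CPM and from 268 to 50.9 CPM. *ATF4* itself had 362 CPM in mock-treated and 155 CPM in DAC-treated S-phase cells, a ratio of 0.428 (0.3998 to 0.459), and *ATF5*, at 101 and 87.3 CPM, was the least lowered. At equal depth the list gave a median of 38 UMIs (8 to 67) per mock-treated and 10 UMIs (1 to 50) per DAC-treated S-phase cell.

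The mock-treated S-phase cells stood high in ATF4 targets among their own library. The list summed to 3848 CPM in mock-treated S-phase cells, 4173 CPM above the G threshold and 2899 CPM in cells low in both sums, and to 1136, 1055 and 1050 CPM in the DAC-treated classes. The DAC-treated classes were thus nearly level. The 10 genes with the lowest ratio in S-phase cells were taken among genes with at least 200 UMIs in the higher library, MT- genes left out. They were *DDIT4*, *TRIB3*, *PCK2*, *ASNS*, *DDIT3* and *SLC7A11* of this list, and *ERRFI1* (557 and 55.2 CPM), *FOSB* (62.5 and 6.25 CPM), *AARS* (154 and 20.99 CPM) and *EPB41L4A-AS1* (137 and 19.8 CPM). Without that limit, the lowest log2 ratio over all genes at the minimum of 10 CPM was -6.63. *ERRFI1* restrains the EGF receptor and *AARS* charges alanine on its tRNA.

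Of 9 genes that take up, activate or break down DAC and nucleotides 8 reached the minimum, and 1 of these was at least 2-fold higher, near the 8.02 percent over all genes, and none 2-fold lower (5.46 percent). The median was 0.31. *SAMHD1*, which breaks down deoxynucleotide triphosphates, had 6.52 CPM in mock-treated and 21.97 CPM in DAC-treated S-phase cells, a ratio of 3.37 (2.31 to 5.08). *DCK*, the kinase that first phosphorylates DAC, had 23.8 and 19.3 CPM, a log2 ratio of -0.30 that turned to 0.90 with percentiles of each library. *CDA*, which inactivates it, had 39.1 and 49.7 CPM, and the carrier gene *SLC29A1* had 19.4 and 25.5 CPM. The log2 ratio of *CDA* turned from 0.34 to -0.16 with percentiles of each library. It was also below 0 at 20% MT- UMIs or less (-0.06) and with the S threshold at the 90th percentile (-0.19). *NME1*, a nucleoside diphosphate kinase, had 429.6 CPM in mock-treated and 843 CPM in DAC-treated S-phase cells, a ratio of 1.96 (1.87 to 2.06).

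Of 14 writers, readers and erasers of methylation 9 reached the minimum, and none of these was 2-fold higher or lower (8.02 and 5.46 percent over all genes), with a median of 0.30. *MBD3* had 21.7 and 40.03 CPM. *DNMT3A* stood at 6.101 and 7.32 CPM and *DNMT3B* at 7.78 and 8.201 CPM. Over 10 housekeeping genes the median was 0.15, or 0.03 with median-of-ratios scaling, with none 2-fold apart, *GAPDH* at 2262 and 2576 CPM and *ACTB* at 1236 and 2230.5 CPM.

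Last, the change in S-phase cells was set beside that in the other eligible cells for each of 3021 genes with at least 200 UMIs in all 4 sums. The difference of log2 ratios was below 0 for 1876 of them. Most negative were cell cycle genes: *RRM2* with 0.20 in S-phase and 2.19 in other cells (difference -1.99, counting interval -2.12 to -1.85), *E2F1* with -0.37 and 1.60, *CLSPN* with 0.47 and 2.34, *FEN1* with 0.20 and 2.06, and *PKMYT1*, a kinase that holds back mitosis, with 0.08 and 1.94. All 5 were higher after DAC in the others, while in S-phase cells *CLSPN* was higher by less, *E2F1* lower and the other 3 near level. This holds for the pooled thresholds only, since with percentiles of each library the S-phase ratios were 3.55, 0.73, 2.11, 1.72 and 2.28 on the log2 scale. The others pool cells above the G threshold and cells low in both sums, whose shares differ between the libraries. The log2 ratio of *RRM2* was 0.97 in the former and 1.89 in the latter, both under the 2.19 of the pool. Because the cells were chosen on the S sum, genes that go with it can rank here by that choice. The ranking of these cell cycle genes is thus a description. Most positive were *SOX4*, *S100A4*, *TSC22D1*, *TNRC6B* and *PCDH7*. *SOX4*, a transcription factor gene, had 89.4 and 94.4 CPM in S-phase cells and 208 and 104 CPM in the others (difference 1.07), and *S100A4*, for a calcium-binding protein, 279 and 319 CPM and 545 and 299 CPM. Both were near level between libraries in S-phase cells and lower after DAC in the others. None of these differences could be tested with 1 library per condition, and *SOX4* and *S100A4* were at -1.11 and -0.62 in S-phase cells with percentiles of each library.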

How the data were processed

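The 2 tables hold UMI counts per gene and cell, which the authors deposited after mapping to hg38 and counting with Cell Ranger 3.0.2, and the release of the gene annotation is not given in the sources used here. The study's methods give 1000 live cells loaded per library, while the tables hold 1783 mock-treated and 1751 DAC-treated barcodes of 33538 genes. No cell was dropped from them beyond the limits on UMIs and MT- genes given above.

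The UMIs of each class of cells were added up and scaled to CPM with Python 3.11.15, numpy 2.4.6, scipy 1.17.1, pandas 2.3.3 and, for figures, matplotlib 3.10.9. Ratios carry exact conditional binomial 95% intervals, shares exact Clopper-Pearson intervals, list medians order-statistic binomial intervals in the alternatives. A gene was called at a 2-fold ratio (1.5-fold between classes of cells) with a mean of at least 10 CPM over both libraries. A gene under 10 CPM in 1 library can reach that mean through the other, so counts of calls are partly set by it. A count of 0 was set to a floor of 3 UMIs where the other sum exceeded it, no ratio was given where both were at or under 3, and counts under 3 were ranked at 3. Each cell was thinned once to 10000 UMIs with a fixed seed. The steps were tested on simulated data.

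Named genes are those of 23 lists, the 10 highest and 10 lowest ratios among genes with at least 200 UMIs in the higher library (MT- genes left out), and the 5 largest differences each way between S-phase and other eligible cells. The members and lists were chosen with earlier results of these data known. Doublets were not called, and an alternative dropped the 5% of cells with the most UMIs. Other alternatives changed thresholds, scaling, depth and the S sum. No test between conditions was made, since 1 library per condition gives no replicate.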

Additional observations from a re-analysis of the deposited data

Results flagged for a closer look

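Among 325 listed genes outside the choice of cells, 10 had opposite directions after DAC in S-phase and in other eligible cells, with a log2 ratio of at least 0.5 in size in each class and counting intervals clear of no change. In each the ratio was below 0 in S-phase cells and above 0 in the others as a pool. Genes outside the lists were not looked at by this rule, so no share over all genes stands beside 10 of 325, and the count is a description. The difference was not tested, the classes were themselves selected on the S sum, and with percentiles of each library the S-phase ratio turned above 0 for all 10. As background, *BRIP1*, *BRCA1*, *BRCA2*, *XRCC2*, *FANCD2* and *FANCI* act in repair of breaks and crosslinks, *POLD3* and *RFC5* in DNA synthesis, *CDT1* in origin licensing, and *E2F8* restrains E2F target genes.

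The log2 ratio of *BRIP1* was -0.97 in S-phase and 1.04 in other cells, a difference of -2.01. For *E2F8* it was -0.55 and 1.22, a difference of -1.76. *POLD3* had -0.69 and 0.93, differing by -1.62. *BRCA2* had -0.53 and 1.07, differing by -1.60. *XRCC2* had -0.55 and 1.04, differing by -1.59. *FANCD2* had -0.78 and 0.67, differing by -1.45. *FANCI* had -0.60 and 0.82, differing by -1.42. *BRCA1* had -0.68 and 0.71, differing by -1.39. *RFC5* had -0.69 and 0.68, differing by -1.36. *CDT1* had -0.66 and 0.65, differing by -1.31. The others pool 2 classes whose shares differ between the libraries, and for all 10 but *E2F8* the value of the pool exceeds that of both classes. In cells above the G threshold *FANCD2*, *BRCA1*, *FANCI*, *E2F8*, *BRCA2* and *BRIP1* were below 0 as in S-phase cells, at -0.52, -0.42, -0.26, -0.21, -0.11 and -0.04, while *POLD3* was at 0.38, *CDT1* at 0.10, *RFC5* at 0.03 and *XRCC2* at 0.01. In cells low in both sums *RFC5* and *CDT1* were near 0, at 0.01 and 0.12, and the other 8 were above 0, from 0.48 to 1.40.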

How the results depend on the processing

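Of 163 values under alternative settings, 126 stayed within the interval or 1.5 times the count of the value reported, 34 moved further and 3 turned direction, counting as turned only values whose interval left out 0, namely the replication difference with percentiles of each library and *CCNE1* and *RRM2* in DAC-treated cells with tiers by total UMIs. The replication and repair medians, whose intervals hold 0, also changed sign with percentiles of each library. Over 11 alternatives the list medians ranged from -2.01 to -1.37 for ATF4 targets, 1.64 to 2.39 for interferon-stimulated, 2.59 to 4.84 for cancer-testis, 0.58 to 2.52 for histone genes and 0.10 to 0.33 for p53 targets, with no change of direction. In a further alternative, chosen after seeing the data, the histone median was 0.01 without the 3 genes at 0 in every mock-treated cell. Replication genes ranged from -0.23 to 1.10, G1/S genes from 0.05 to 1.29 and repair genes from -0.51 to 0.91. Leaving out a replicate was not possible with 1 library per condition, and no paired analysis was possible because there is 1 library per condition. Where no construction is given below, the cause was not tested.

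With percentiles of each library the medians were 1.10 for replication, 1.29 for G1/S and 0.91 for repair genes, and the replication difference between S-phase and other cells turned to 0.34. That difference was -1.38 when CPM was taken per cell and averaged, and, in an alternative chosen after seeing the data, -0.82 against cells low in both sums. Against those cells the replication genes stood at 2.47 in mock-treated and 1.56 in DAC-treated S-phase cells, and against cells above the G threshold, also added after seeing the data, at 0.58 and 0.15. The share of S-phase cells was 26.8% in the DAC-treated library at 20% MT- UMIs or less, 2.77% and 9.38% with the S threshold at the 90th percentile, and 10.3% in the mock-treated library with an S sum of MCM genes only. Fewer or more genes tested gave 170 higher and 137 lower at a minimum of 50 CPM and 2703 and 1316 with none, and a 1.5-fold threshold gave 1665 and 1017.

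At 5000 UMIs per cell, 1862 and 1959 genes were detected, the selected genes gave 21.5 and 53 UMIs, and 82.5% of DAC-treated S-phase cells lay above the mock-treated 99th percentile. A second seed gave 96.1%, outside the interval of the share given above. With genes that had no UMI in any mock-treated cell the medians were 0 and 17 UMIs and the share 100%. With tiers by total UMIs, the log2 ratios of the highest to the lowest tier in mock-treated cells were -0.034 for *CCNE1*, 0.72 for *RRM2*, 0.25 for *CCNA2* and 0.67 for *HIST1H4C*, and in DAC-treated cells 0.31, -0.21, 0.56 and 0.072, the first 2 turned. Leaving out cells with a shared barcode, also added after seeing the data, left each value within its interval. With 112 mock-treated S-phase cells, genes of few UMIs have wide intervals.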

Other observations

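Genes of G2 and mitosis that did not choose the cells were also read in S-phase cells. Of 28 genes 26 reached the minimum of 10 CPM, and 6 of these were at least 2-fold higher after DAC (8.02 percent over all genes) and none 2-fold lower, with a median of 0.33, and they summed to 2281 CPM in mock-treated and 3050 CPM in DAC-treated S-phase cells. *CDC20*, which starts the exit from mitosis, had 58.3 CPM in mock-treated and 197 CPM in DAC-treated S-phase cells, a ratio of 3.39 (2.98 to 3.85), and *PLK1*, a mitotic kinase, had 21.9 CPM in mock-treated and 61.2 CPM in DAC-treated S-phase cells, a ratio of 2.798 (2.27 to 3.48). *TUBB4B*, a tubulin gene, had 296 CPM in mock-treated and 709 CPM in DAC-treated S-phase cells, a ratio of 2.395 (2.26 to 2.54), while *HMGB2* had 444 and 352 CPM. Above the G threshold the same list summed to 6299.8 CPM in mock-treated and 5729.6 CPM in DAC-treated cells. The S-phase cells held their G sum at or under the threshold by the way they were chosen. Under it, the median G sum was 11.2 UMIs per 10000 in mock-treated and 13.6 in DAC-treated S-phase cells. What part of the higher values goes with that difference was not tested.

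Epithelial genes were split in S-phase cells. *KRT18* had 2326 CPM in mock-treated and 4961 CPM in DAC-treated S-phase cells, a ratio of 2.13 (2.09 to 2.18), and its partner *KRT8* had 1074 CPM in mock-treated and 2116 CPM in DAC-treated S-phase cells, a ratio of 1.97 (1.91 to 2.03). *CLDN7* and *CLDN4*, of tight junctions, went from 429 to 171 CPM and from 50.1 to 20.1 CPM, both at least 2-fold lower, and *EPCAM* had 361 and 259 CPM. The 8 genes had a median of -0.04 and summed to 5317 and 9059 CPM, with the keratins making most of the sum.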
